A study of Mus musculus with 76 samples.

Results

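Kainate receptors are glutamate-gated ion channels assembled from the subunits of 5 genes, Grik1 to Grik5, and they are joined at the membrane by the auxiliary proteins Neto1 and Neto2. These 7 genes were taken by name from the 35825 gene symbols of the deposited table, all 7 were present, and the rule that picks them uses names, not measured values. They were measured in single inhibitory neurons by Patch-seq, which sequences the RNA sucked from a neuron through the recording pipette. The 76 labelled cells came from dorsal CA1 of mice at postnatal day 4 and carried Nkx2.1-Cre with the Ai14 reporter, so that neurons from the medial ganglionic eminence (MGE), where Nkx2-1 drives the Cre, were tdTomato-positive. All cells were sampled in the pyramidal cell layer, which the series describes as enriched for putative parvalbumin basket cells. The genotypes compared were GPHN WT and GPHN S268/270A (Mut), in which serines 268 and 270 of gephyrin, the scaffold protein of inhibitory synapses, are replaced by alanine. Both sexes were collected, no treatment was given, and the labels name no animal, litter or batch.

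The kainate subunits fall into 2 classes. The proteins of Grik1, Grik2 and Grik3 (GluK1, GluK2 and GluK3) form working channels by themselves, whereas those of Grik4 and Grik5 (GluK4 and GluK5) bind kainate tightly but need a partner of the first class to make a channel. Neto1 and Neto2 are transmembrane proteins that slow the channel's gating and affect where receptors go, and Neto1 also associates with NMDA receptors. In the hippocampus kainate receptors depolarise interneurons and regulate transmitter release from their terminals.

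Of the 76 cells, the authors kept 67, and 62 of these had no contamination mark: 9 female and 19 male WT cells, and 19 female and 15 male Mut cells. The other 5 kept cells, 4 WT male and 1 WT female, were marked as contaminated and are described separately. The unmarked cells held 2946456 to 12070780 counts (median 6353179). Per cell, 1499 to 7795 genes reached a CPM of 10 (counts scaled to the library's total), the level from which a cell is here said to carry a gene. Of the 62 cells, 57 carried Lhx6, a transcription factor of MGE interneurons, and 58 carried Gad1, which makes GABA, while 31 carried the pyramidal cell gene Neurod6. By the summed markers of other cell types, 7 cells stood apart, with 5000 CPM or more of astrocyte or microglia markers or 10000 CPM or more of blood markers, limits set after the values were seen. Astrocyte markers summed to 8220 CPM in Mut female cell 18, 7207 in WT female cell 7, 5913 in Mut female cell 2, 5737 in Mut male cell 1 and 5427 in WT male cell 20. Of these, Mut female cells 2 and 18 and WT female cell 7 had Lhx6 under 5 CPM. Blood markers summed to 26898 CPM in Mut female cell 18, 13445 in WT male cell 20 and 12009 in WT male cell 17, and microglia markers to 7412 CPM in Mut female cell 20. Cell numbers count the labelled cells of a group, including those that failed the authors' filter.

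In single cells the 7 genes were mostly either near 0 or clearly present. Of the 434 values (7 genes in 62 cells), 10 (2.30%) were 0, 170 (39.2%) lay above 0 and below 10 counts, 90 (20.7%) at 10 to 99 counts and 164 (37.8%) at 100 counts or more. Neto2 was carried by 38 of 62 cells (61.3%, exact 95% binomial interval 48.1 to 73.4%), Grik5 by 36 (58.1%), Grik2 by 29 (46.8%) and Grik1 by 24 (38.7%). Neto1 was carried by 20 cells (32.3%), Grik3 by 18 (29.0%) and Grik4 by 12 (19.4%, interval 10.4 to 31.4%). The interval of Neto2 does not overlap those of Neto1, Grik3 and Grik4, but neighbours in this order overlap broadly. For scale, the median over 16435 tested genes was 10 cells, and the share of genes carried by fewer cells than a member ran from 53.4% for Grik4 to 87.7% for Neto2. Among the 55 cells left without the 7 that stood apart, Neto2 was carried by 35, Grik5 by 33, Grik2 by 27, Grik1 by 23, Neto1 and Grik3 by 17 each and Grik4 by 10. All these intervals treat the cells as independent draws, while the labels do not say how many animals the cells came from. The members were measured in the same 62 cells, and differences between them were not tested.

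**Figure D1:**
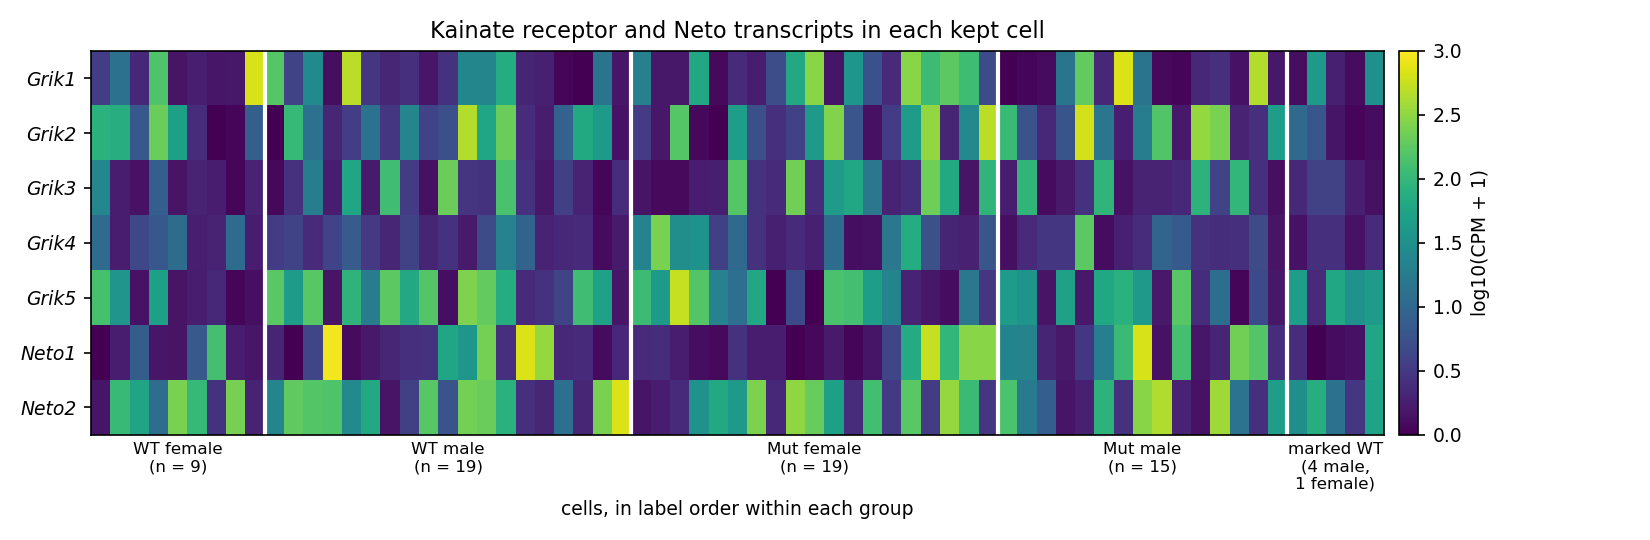
Level of each of the 7 genes in each kept cell, as the log10 of CPM + 1, with cells in columns by group and the contamination-marked WT cells at the right. Columns differ from cell to cell within every group, and Neto2 and Grik5 are filled in more of the unmarked cells than Grik3 and Grik4.

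On the length-scaled TPM of the deposited table, the means over the 62 cells formed a higher and a lower set. Neto1 had a mean of 30.6 ± 67.7 TPM (SD over cells, n = 62), Neto2 30.1 ± 45.1, Grik1 27.1 ± 60.3, Grik2 24.4 ± 46.7 and Grik5 23.2 ± 34.2. Grik3 had 4.36 ± 8.43 TPM and Grik4 3.87 ± 13.2 TPM. Within each of these sets the means lay far inside the spread between cells. The medians gave another order, with Neto2 at 8.70 TPM, Grik5 at 8.22, Grik2 at 1.89, Grik1 at 0.70, Neto1 at 0.46, Grik4 at 0.41 and Grik3 at 0.21. Neto1 led by its mean but lay below Grik1 by its median, as a minority of cells held it at a high level.

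The 5 kainate subunits together reached 83.0 ± 84.4 TPM per cell, against 332 ± 239 TPM for the 4 AMPA receptor subunits and 491 ± 464 TPM for the 7 NMDA receptor subunits. These are the other ionotropic glutamate receptors, and most cells held far more of their transcripts. The kainate sum was above the AMPA sum in 7 cells (11.3%) and above the NMDA sum in 6 (9.68%). In breadth the genes of the 3 families overlapped. Grin2b was carried by 61 cells, Gria1 by 57, Gria2 by 54, Gria4 by 46 and Grin1 by 43, all more than Grik5 with 36. Gria3 (33), Grin3a (28), Grin2d (19), Grin2a (18), Grin2c (2) and Grin3b (0) were carried by fewer.

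Grik1 encodes GluK1, a subunit long studied in hippocampal interneurons. Its gene lies on chromosome 16 (87895900 to 88290265, minus strand, GRCm38). In WT female cells its level ran from 0.43 to 663 CPM (median 1.24) and in WT male cells from 0 to 488 CPM (median 1.78). In Mut females the level ran from 0.20 to 292 CPM (median 4.66) and in Mut males from 0 to 679 CPM (median 1.16). All 4 groups overlapped over much of their range, and in each the median cell did not carry the gene while the highest cells were far above the level of carrying. Grik1 was carried by 3 of 9 female and 7 of 19 male WT cells, and by 9 of 19 female and 5 of 15 male Mut cells. Where it was carried its median was 92.8 CPM, and in the other cells the median was 4 counts.

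Grik2 encodes GluK2, a principal subunit found in pyramidal cells and interneurons alike, and lies on chromosome 10 (49094833 to 49788766, minus strand). WT female cells ran from 0 to 203 CPM (median 7.17) and WT male cells from 0 to 454 CPM (median 7.84). Among Mut female cells it ran from 0 to 488 CPM (median 4.40) and among Mut male cells from 0.60 to 632 CPM (median 14.1). The groups overlapped, and no group lacked the gene: it was carried by 4 of 9 female and 9 of 19 male WT cells, and by 8 of 19 female and 8 of 15 male Mut cells. It was the most widely carried of the 3 principal subunits. Since pyramidal neurons also make it, the pyramidal marker genes were set beside it. Grik2 was carried by 18 of the 31 cells with Neurod6 and by 11 of the 31 without it, and the part of pyramidal cell RNA in this was not tested. The split was not particular to Grik2, as Grik1 had 15 and 9 such cells and Grik5 20 and 16. Neto1 had 9 and 11 and Grik3 8 and 10, while Grik4 (6 and 6) and Neto2 (19 and 19) had equal counts.

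Grik3 encodes GluK3, a principal subunit with low sensitivity to glutamate, and lies on chromosome 4 (125490700 to 125714173, plus strand). WT female cells ran from 0.12 to 23.7 CPM (median 0.68) and WT male cells from 0.11 to 209.5 CPM (median 1.73). Mut female cells ran from 0.18 to 228 CPM (median 1.47) and Mut male cells from 0.22 to 95.1 CPM (median 1.15). Among the WT females, WT female cell 1 held 81.7% of the group's counts. It was carried by 1 of 9 female and 5 of 19 male WT cells, and by 8 of 19 female and 4 of 15 male Mut cells.

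Grik5 encodes GluK5, the more widely used of the high-affinity partner subunits in the brain, and lies on chromosome 7 (25009849 to 25072346, minus strand). WT female cells ran from 0.12 to 134 CPM (median 0.72) and WT male cells from 0.30 to 259 CPM (median 63.7). Mut female cells ran from 0 to 551 CPM (median 20.1) and Mut male cells from 0.10 to 167 CPM (median 11.1). Thus the median WT male cell carried Grik5 and the median WT female cell did not, with 13 of 19 against 3 of 9 cells carrying it. Of the Mut cells, 12 of 19 females and 8 of 15 males carried it. The ranges of the 4 groups still overlapped. Among WT male cells Grik5 was spread over cells more evenly than the other members, as the highest cell held 13.1% of the group's counts.

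Grik4 encodes GluK4, the other partner subunit, best known from CA3 pyramidal cells, and lies on chromosome 9 (42518135 to 42944493, minus strand). WT female cells ran from 0.67 to 10.6 CPM (median 3.50) and WT male cells from 0.23 to 20.1 CPM (median 1.78). The Mut female cells ranged from 0.31 to 251 CPM (median 4.48) and Mut male cells from 0.25 to 176 CPM (median 1.57). It was the least carried member, in 3 of 9 female and 1 of 19 male WT cells and in 7 of 19 female and 1 of 15 male Mut cells, and 2 cells reached 100 CPM, Mut female cell 2 and Mut male cell 5. Mut female cell 2 is one of the cells high in astrocyte markers, and it held 50.4% of the Mut female counts. Mut male cell 5 held 78.7% of the Mut male counts. Across the 62 cells Grik4 had a Spearman's rho of 0.45 with the summed blood markers and of 0.45 with the endothelial markers, whose part in its level was not tested.

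Neto2 lies on chromosome 8 (85636588 to 85700924, minus strand), and it was the member carried by the most cells. WT female cells ran from 0.48 to 249 CPM (median 55.5) and WT male cells from 0.44 to 702 CPM (median 65.7). Mut female cells ran from 0.49 to 337 CPM (median 39.7) and Mut male cells from 0.39 to 439 CPM (median 12.9). The ranges overlapped throughout, and the median cell of every group carried the gene. Of the WT cells 6 of 9 females and 13 of 19 males carried it, and of the Mut cells 11 of 19 females and 8 of 15 males.

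Neto1, on the plus strand of chromosome 18, was carried by few cells, and at high levels. WT female cells ran from 0 to 129 CPM (median 0.67) and WT male cells from 0 to 896 CPM (median 1.60). Among Mut females it ran from 0 to 538 CPM (median 0.76) and among Mut male cells from 0.40 to 650.4 CPM (median 18.1). Where it was carried its median was 144 CPM, the highest of the 7 genes, and 13 of its 20 carrying cells reached 100 CPM. The single WT female cell that carried it was WT female cell 7, which is high in astrocyte markers. WT male cells carried it in 6 of 19, Mut female cells in 5 of 19 and Mut male cells in 8 of 15, and the groups overlapped.

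**Figure D2:**
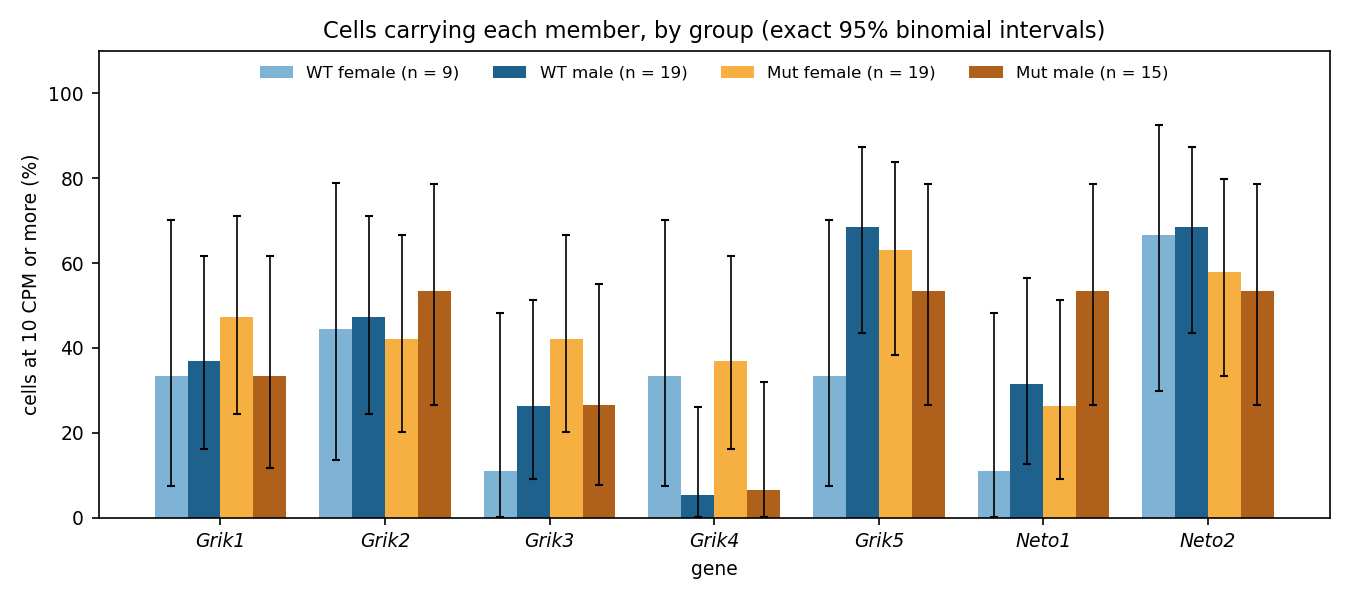
Share of the unmarked cells of each group at 10 CPM or more for each gene, in percent of cells, with exact 95% binomial intervals as bars. Intervals are wide, above all for the 9 WT female cells, and Grik4 lies lowest over all cells at 12 of 62.

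Which members met in the same cell was counted next, since partner subunits need a principal subunit. At least 1 of the 7 genes was carried by 60 of 62 cells. A kainate subunit was carried by 52 (83.9%, exact interval 72.3 to 92.0%), a principal subunit by 45 and a partner subunit by 40. Both classes were found together in 33 cells (53.2%, interval 40.1 to 66.0%), and 12 cells had a principal subunit without Grik4 and Grik5. The reverse, Grik4 or Grik5 with no principal subunit at 10 CPM, was found in 7 cells (11.3%, interval 4.66 to 21.9%). A single principal subunit was carried by 22 cells, a pair by 20 and all 3 by 3 cells.

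A Neto gene was carried by 47 cells, most often Neto2 alone. Neto2 without Neto1 was found in 27 cells, Neto1 without Neto2 in 9 and both in 11. A kainate subunit and a Neto gene met in 39 cells (62.9%, interval 49.7 to 74.8%), and the full set of principal subunit, partner subunit and Neto gene in 24 (38.7%). Kainate subunits without a Neto gene were carried by 13 cells. A Neto gene with no kainate subunit was carried by 8 cells, all 8 of them WT (3 female, 5 male) and none of the 34 Mut cells. The 8 cells had 1499 to 6011 genes at 10 CPM, and 3 of them are among the 7 cells that stood apart, without which 5 remain. Cells are not replicates, so the genotypes were not tested on this count.

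The cells were diverse in their sets of members. The 62 cells had 44 distinct sets, of which 34 were found in 1 cell. The commonest sets, with 4 cells each, were Neto2 by itself and the combination of Grik1, Grik2, Grik5, Neto1 and Neto2. Most cells carried 2 (17 cells), 3 (15) or 4 (11) of the genes, WT male cell 14 carried 6 and no cell carried all 7. The 2 cells with none differed in kind: Mut female cell 11 had Lhx6 at 1284 CPM and Gad1 at 589 CPM, whereas Mut male cell 3 had both near 3 CPM. The number of members per cell had a Spearman's rho of 0.36 with the number of genes at 10 CPM in the cell, whose part in the diversity of sets was not tested.

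**Figure D3:**
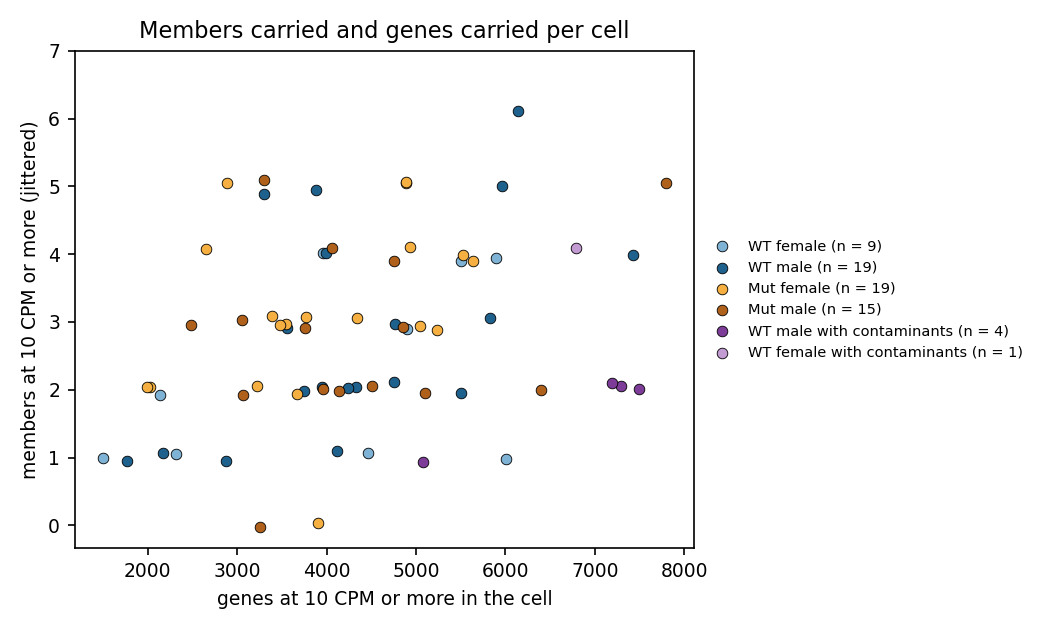
Number of the 7 genes at 10 CPM or more in a cell (vertical, jittered) against the number of all genes at 10 CPM or more in it (horizontal), with 1 point for each kept cell. Cells with 1 member range from 1499 to 6011 genes, and the 4 marked WT male cells carry 1 or 2 members at 5083 to 7495 genes.

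Pairs of members showed weak relations across cells. Spearman's rho on log2(CPM + 1) ran from -0.22 for Grik4 with Neto2 to 0.29 for Grik2 with Grik3, over 62 cells that share the cell's depth and number of genes. Grik2 and Grik5, a classical principal and partner pair, met in 20 cells, which is 69.0% of the Grik2 cells and 55.6% of the Grik5 cells. Grik5 and Neto2 met in 24 cells, 66.7% of the Grik5 cells and 63.2% of the Neto2 cells. Grik1 and Grik2 met in 13 cells, 54.2% of the Grik1 cells and 44.8% of the Grik2 cells. Neto1 and Neto2 had a rho of -0.06 and met in 11 cells, which is 55.0% of the Neto1 cells and 28.9% of the Neto2 cells.

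Among the 8086 genes carried by at least 10 cells, those with the pattern most like each member's had modest rho values over the 62 cells. The 3 genes named for each member were picked as the highest of all these values. No chance level was set for so wide a choice, so the values do not show a relation. For Grik1 these were Dgke (0.48), Them4 (0.46) and Dhodh (0.45), and for Grik2 Fam91a1 (0.57), Lrrc45 (0.52) and Tada3 (0.51). Grik3 was most like Map3k2 (0.55), Ptpre (0.47) and Alg9 (0.47), and Grik5 most like Immp1l (0.48), Ndufc2 (0.47) and Ppm1e (0.46). Neto1 was most like Rasgrf2 (0.53), Cks1b (0.52) and Kansl2 (0.45), and Neto2 most like Slc30a1 (0.48), Serpini1 (0.44) and Timp2 (0.43). Grik4 had the highest values, with Olfr1124 (0.69), Klhl31 (0.65) and Ebf1 (0.63). Of the 12 cells that carried Grik4, 5 carried Olfr1124, 7 Klhl31 and 6 Ebf1, so these values also rest on levels under 10 CPM. Grik4 had a rho of -0.35 with the cell's total count, the lowest of the 7 members, whose part here was not tested. Olfr1124 is an odorant receptor gene and Ebf1 is known from B cells and pericytes. No other member appeared among the 3 genes most like any member.

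Neuropeptide genes divide MGE interneurons into kinds, and the members were counted along 5 marker genes, of which Sst and Tac1 were picked out after the values were seen. Grik1 was carried by 14 of the 21 cells with Sst (somatostatin) at 10 CPM or more (66.7%) and by 10 of the 41 without it (24.4%), with medians of 22.98 and 1.10 CPM. Grik5 was carried by 10 of the 21 Sst cells (47.6%) and by 26 of the 41 others (63.4%). Grik3 was carried by 14 of the 30 cells with Tac1 (46.7%), which encodes the peptide substance P, and by 4 of the 32 without it (12.5%). These counts pool cells of all groups and were not tested, because the cells' animals are not named.

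The comparison of genotypes asks whether the gephyrin substitution goes with a change in these genes. No member differed between the genotypes beyond the spread of the model. In edgeR's quasi-likelihood test over the 4 group sums, 0 of the 7 genes had a Benjamini-Hochberg adjusted p under 0.05, as had 0% of the 16435 genes tested. At an unadjusted p under 0.05 it was again 0 of 7, against 3.5% of all genes (1.66% higher and 1.84% lower in Mut). DESeq2 on the same sums called 666 of the 16435 genes at an adjusted p under 0.05, and 0 of the 7 members. Its lowest adjusted p for a member was 0.463, for Grik4. Each sum is 1 sample, the fit has 1 residual degree of freedom, and the coefficient of variation was 0.958 over the genes. The sum with the fewest counts, Grik3 in WT female cells with 301, had an exact 95% Poisson interval of 5.04 to 6.33 CPM. Relative to the value, the error of counting reads was smaller in all other sums. With 1 residual degree of freedom, a count of 0 does not show that the genotypes were alike in these genes. The members' median log2 fold change, Mut over WT, was 0.69 beside -0.00 over all genes tested. Within the sexes the members' median log2 ratio was 0.95 in females and 0.12 in males, beside 0.016 and -0.019 over all genes.

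Among the principal subunits, Grik1 was the least settled in direction. Its summed level, in TMM-scaled CPM, was 131 in WT female, 34.7 in WT male, 72.0 in Mut female and 73.3 in Mut male cells. The WT sums were the highest and the lowest of the 4, and both Mut sums lay between them. The log2 fold change over both sexes was 0.11 (SE 0.76, edgeR p = 0.894, adjusted p = 1). WT female cell 9 held 90.2% of its group's Grik1 counts and Mut male cell 7 held 61.8%. The log2 fold change was 1.68 when WT female cell 9 was left out and -0.53 when Mut male cell 7 was.

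Grik2 was higher in the Mut sums of both sexes, though not beyond the error of the fit. Its sums were 44.9 CPM in WT female, 44.7 in WT male, 60.7 in Mut female and 85.6 in Mut male cells, so that the WT sexes were alike. The log2 fold change was 0.69 (SE 0.66, edgeR p = 0.347, adjusted p = 1), and it lay between 0.47 and 0.97 when any 1 cell was left out. With only the 51 cells of 3000 or more genes at 10 CPM, a setting chosen after seeing the data, it was 0.075. No cell held more than 35.7% of a group's Grik2 counts. The median sum of pyramidal markers per cell was 1720 CPM in WT female, 974 in WT male, 718 in Mut female and 1613 in Mut male cells. Across the 62 cells Grik2 had a Spearman's rho of 0.27 with this sum, the highest of the 7 genes. Its rho with the number of genes at 10 CPM was 0.27 as well. The part of either in the Grik2 sums was not tested.

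Grik3 differed mainly through the low sum of WT female cells. Its sums were 5.66 CPM in WT female, 27.6 in WT male, 39.1 in Mut female and 30.1 in Mut male cells, giving log2 ratios of Mut to WT of 2.59 in females and 0.12 in males. The fold change over both sexes was 1.46 on the log2 scale (SE 1.26, edgeR p = 0.304, adjusted p = 1). It was 2.49 without WT female cell 1.

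Of the partner subunits, Grik4 had the largest fold change of the 7 genes and also the largest error. Its sums were 5.71 CPM in WT female, 3.07 in WT male, 22.3 in Mut female and 9.49 in Mut male cells. Both Mut sums were above both WT sums, with log2 ratios of 1.79 in females and 1.37 in males. How many of all genes separated the genotypes in this way was not counted. The log2 fold change over both sexes was 1.79 (SE 1.42, edgeR p = 0.267, adjusted p = 1). In females the ratio was 0.90 without Mut female cell 2, and in males it was -0.35 without Mut male cell 5, so the male direction rests on that cell. Grik5 went in opposite directions in the sexes, from 34.1 CPM in WT to 66.6 in Mut females and from 69.2 in WT to 40.9 in Mut males. Its log2 fold change was 0.10 (SE 0.82, edgeR p = 0.906, adjusted p = 1), with values of 0.96 when WT female cell 1 was left out and -0.21 when Mut male cell 12 was.

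Of the auxiliary subunits, Neto2 had sums within a narrow range. They were 90.8 CPM in WT female, 113 in WT male, 92.3 in Mut female and 83.8 in Mut male cells, and the log2 fold change was -0.21 (SE 0.52, edgeR p = 0.710, adjusted p = 1). It was 0.07 without the 7 cells that stood apart, among which WT male cell 20 held 36.3% of its group's Neto2 counts. Neto1 had sums of 19.8 CPM in WT female, 100.3 in WT male, 71.7 in Mut female and 88.2 in Mut male cells. The WT female sum stood apart, and 91.7% of it came from WT female cell 7. The log2 fold change of Neto1 was 0.83 (SE 0.80, edgeR p = 0.351, adjusted p = 1), and it was 2.55 without that cell and 2.32 without all 7 cells that stood apart. All of the 5 Mut female cells that carried Neto1 had title numbers above 117, the highest of a WT male cell, a range with 6 Mut female, 4 Mut male and 3 WT female cells. Without these 13 cells the log2 fold change of Neto1 was -1.04. The labels name no batch, and what the title number records was not tested.

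**Figure D4:**
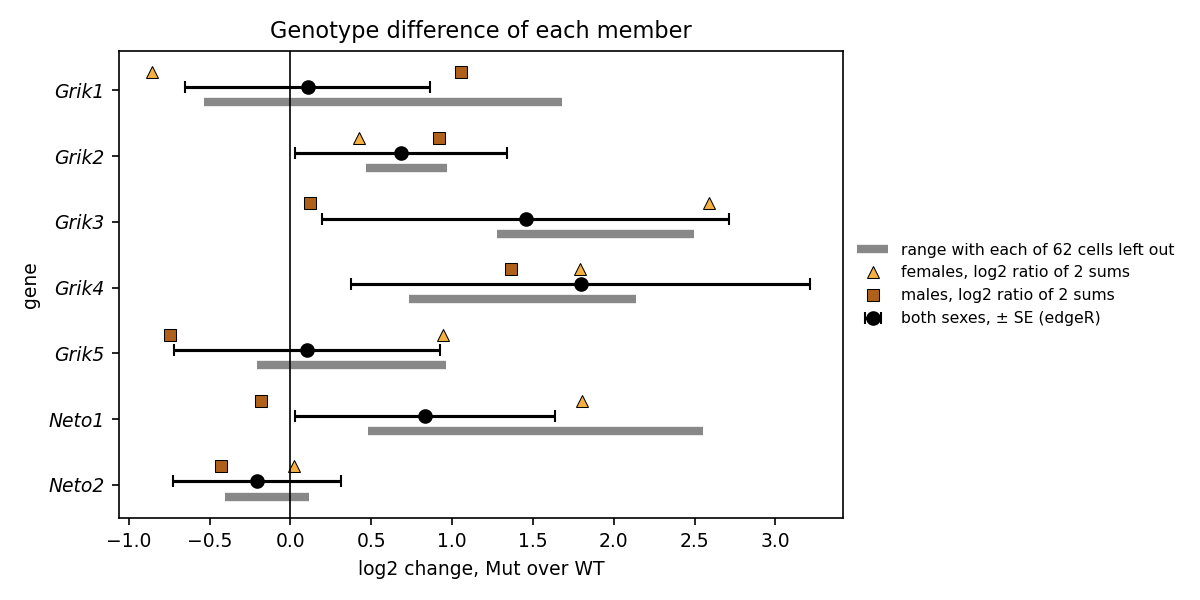
Log2 fold change of each gene, Mut over WT, over both sexes with its standard error from edgeR, the log2 ratio of the sums within females (triangles) and males (squares), and the range with each of the 62 cells left out (grey bars). The standard errors are wide against the values, from 0.52 for Neto2 to 1.42 for Grik4, and Grik1, Grik5, Neto1 and Neto2 have ratios of opposite sign in the sexes.

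The members' ratios within each sex were counted beside those of all genes, and with 7 genes these counts were not tested. In females 3 of the 7 genes (Grik3, Grik4 and Neto1) had a log2 ratio of 1 or more, against 23.1% of all genes. In males 2 of the 7 did (Grik1 and Grik4), against 16.7%. The ratio was above 0 in both sexes for Grik2, Grik3 and Grik4, against 25.1% of genes. For Grik3 and Grik4 the sign in males changed when single cells were left out. The male ratio was -0.22 for Grik3 without Mut male cell 6 and -0.35 for Grik4 without Mut male cell 5. With all cells, the ratio was below 0 in both sexes for none, against 25% of genes. It had opposite signs for 4 of the 7, against 49.2%. No member had a log2 ratio of -1 or less in either sex, where 18.2% of genes did in females and 17.4% in males.

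How far single cells set these sums is shown by the share of the highest cell. In the WT female sums the highest cell held 90.2% of the counts of Grik1, 91.7% of Neto1, 81.7% of Grik3 and 76.3% of Grik5, against a median of 60.0% over all genes tested. In the other groups the medians over all genes were 42.2% in WT male, 44.3% in Mut female and 46.4% in Mut male sums. Grik2 lay below the median in all 4 groups, with 34.9%, 35.7%, 26.9% and 31.3%, and so did Neto2, with 42.7%, 36.3%, 23.5% and 29.9%.

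**Figure D5:**
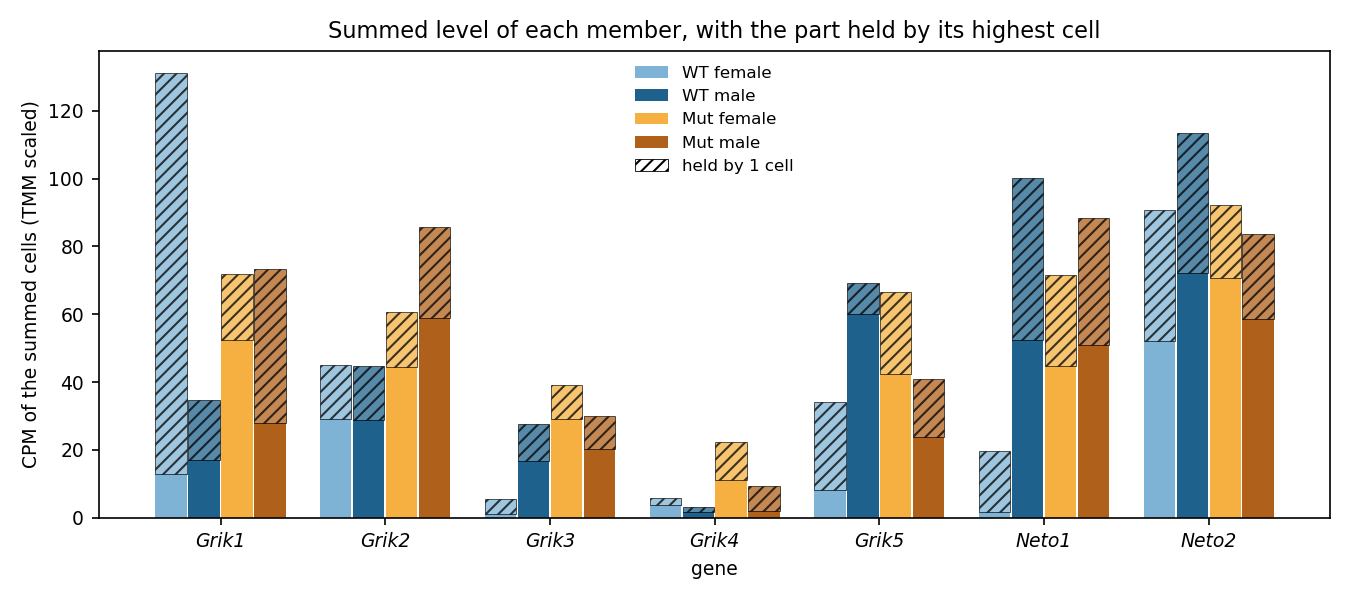
Summed level of each gene in the 4 groups in TMM-scaled CPM, with the portion that came from the highest cell of the group hatched. One cell makes up most of the WT female sums of Grik1, Grik3, Grik5 and Neto1.

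The genes known to work with kainate receptors were tested as a list of 20 that holds scaffolds, adhesion proteins, trafficking proteins and signalling enzymes. Of these, 19 were in the table and 18 were tested. None passed at an adjusted p under 0.05 in edgeR's test, and 1 had an unadjusted p under 0.05, Ctnnb1, which encodes beta-catenin. Its sums were 736 CPM in WT female, 412 in WT male, 270 in Mut female and 240 in Mut male cells, a log2 fold change of -1.11 (SE 0.37, edgeR p = 0.0319, adjusted p = 1). Both Mut sums were below both WT sums, and the share of all genes for which this held was not counted. At this unadjusted level 1.84% of all genes were lower in Mut. Of the 18, 2 were higher in Mut in both sexes, 6 were lower in both and 10 went in opposite directions. Over all genes tested these shares were 25.1%, 25% and 49.2%, and the partner counts were not tested against them. The list's median log2 fold change was -0.10. None of the 4 AMPA receptor subunits or the 5 NMDA receptor subunits tested passed either, with median log2 fold changes of -0.36 and 0.37.

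The 5 WT cells marked as contaminated were set beside the unmarked WT cells. The summed counts of the 4 marked WT male cells were compared with those of the 19 unmarked ones. In the marked cells 5 of the 7 genes were lower by a log2 ratio of -1 or less, against 24.1% of 17193 genes. Grik4 and Grik5 were lower by less, and the share of all genes lower by any amount was not counted. Neto1 was lowest, with 15 counts (0.60 CPM) against 13172 counts (98.9 CPM), a log2 ratio of -5.97. In the 4 marked cells Neto1 stood at 1.38, 0, 0.27 and 0.39 CPM, so none carried it. Most unmarked WT male cells did not carry it either. It was carried by 6 of the 19, their median was 1.60 CPM, and 3 cells held 86.6% of their counts. Only marked cells were left out in turn, so the dependence of these ratios on single unmarked cells was not measured. Grik2 stood at 9.996, 5.42, 0.48 and 0.13 CPM, a log2 ratio of -3.07 (-3.90 without marked cell 1), and Grik3 at 1.18, 2.91, 2.89 and 0.79 CPM, a log2 ratio of -3.18. All 4 marked cells were thus under the level of carrying for these 3 genes. Of the 19 unmarked WT male cells, 9 carried Grik2 and 5 carried Grik3. The median of Grik3 was 2.04 CPM in the marked and 1.73 CPM in the unmarked male cells. Among the unmarked, 3 cells held 86.5% of the Grik3 counts.

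Grik5 differed least, at 46.7, 1.32, 60.1 and 32.7 CPM in the 4 marked male cells, with a log2 ratio of -0.72. Of the 4 cells, 3 carried it. Grik4 had a log2 ratio of -0.96 from levels of 0.41, 1.58, 1.51 and 0.39 CPM. Without marked cell 3 the ratios of Grik5 and Grik4 were -1.06 and -1.11. Neto2 stood at 30.3, 72.7, 12.2 and 1.97 CPM, a log2 ratio of -1.84, or -2.63 without marked cell 2. Grik1 had a ratio of -1.68 that rests on marked cell 2, with 0.28, 39.9, 0.82 and 0.26 CPM, and it was -4.52 without that cell. In the marked WT female cell Grik1 stood at 31.2 CPM, Grik5 at 43.9, Neto1 at 59.2 and Neto2 at 53.5, while Grik2, Grik3 and Grik4 were at 0.27, 0.35 and 1.31 CPM.

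Other genes moved with the mark as well. All 11 microglia markers reached 10 CPM in marked cells, and their sum was 11289 to 13252 CPM in the marked male cells against a median of 16.3 CPM in all unmarked cells. The summed AMPA subunits were 81.8 to 271 CPM in the marked males against a median of 1144 CPM in unmarked WT males, and the MGE interneuron markers 125 to 803 against 1245 CPM. The marked males had more genes at 10 CPM, 5083 to 7495 per cell against a median of 4117. The part of these in the lower kainate and Neto levels was not tested, and the basis of the mark is not given in the sources used here.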

How the data were processed

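Single cells of the labelled groups were measured by Patch-seq with Nextera XT libraries. The authors deposited expected counts per gene symbol, made with kallisto (version not given in the sources used here) on GRCm38 per the submitters' processing notes, in a table before and a table after their quality filter. Kept cells held identical counts in both. The authors also deposited TPM, used here to compare levels between genes. Neither the filter's criterion nor the reason for a contamination mark is given in the sources used here. The tables also hold columns of other samples (52 unfiltered, 44 filtered), not used here.

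CPM per cell is the expected count over the cell's total. A cell carries a gene at 10 CPM or more. Shares have exact Clopper-Pearson intervals and sums exact Poisson intervals, at 95%. The intervals of shares treat the cells as independent draws. Expected counts come from PCR-amplified libraries without molecular identifiers, so the Poisson intervals cover the counting of reads, not of molecules. As no animal is named, cells were not replicates: unmarked cells were summed by genotype and sex, and the sums (61543135 and 120682125 counts for WT females and males, 117701842 and 112199121 for Mut females and males) rounded to whole numbers. The p-values therefore measure only the spread between these sums. The edgeR 4.0.16 quasi-likelihood test had sex and genotype as terms, TMM scaling (factors 0.865, 1.09, 1.04 and 1.02) and filterByExpr with a minimum count of 10. P-values were adjusted by Benjamini-Hochberg over all 16435 genes and called under 0.05. On simulated counts with the spread of these data, the fit recovered no change that was put in. A lack of calls therefore cannot show that a gene was unchanged. DESeq2 1.42.0 and other scalings, filters, cell sets and limits were alternatives. Ratios within a sex, and for the contamination mark, are of TMM-scaled sums with 1 CPM added.

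The rule for the members uses gene names alone, but the members and gene lists were chosen with earlier results of these data known. Named genes were the 7 members, the 3 genes of highest Spearman's rho with each (names starting Gm plus a digit or ending Rik passed over), and partner genes with an unadjusted p under 0.05. Gene positions are from GENCODE annotation of GRCm38. Of each member's 31-base words, at most 2.45% (Neto1) occurred in transcripts of another gene. Exons of Grik4, Neto1 and Neto2 overlap other annotated genes by 59, 219 and 20 bases, and the libraries are not stated to keep strand.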

Additional observations from a re-analysis of the deposited data

Results flagged for a closer look

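Single cells stood far from the rest of their group in 2 of the 14 pairs of a gene and a group checked by the gap of the extreme cell. Only groups of 4 to 10 cells were checked. Chance marks about 1 in 20 such pairs when values are normally distributed. The values here were mostly either very low or clearly present, so that rate need not hold for them. Neto1 in WT female cell 7 stood at 129 CPM, against a group median of 0.67 CPM. Grik1 in marked WT male cell 2 stood at 39.9 CPM, with the other marked male cells under 1 CPM.

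The genotype ratio of the sums had opposite signs in the sexes for 4 of the 7 genes, and whether the sexes differ was not tested, since each sum is 1 sample. The log2 ratio of Mut to WT was -0.86 in females and 1.06 in males for Grik1, and 0.95 and -0.75 for Grik5. For Neto1 it was 1.80 and -0.18, and for Neto2 0.023 and -0.43. Leaving out 1 cell changed the sign of one of these ratios in several cases: the female ratio of Grik1 was 2.21 without WT female cell 9, and the male ratio of Neto1 was 0.64 without WT male cell 5.

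The 9 cells that failed the authors' filter entered the genotype comparison only as an alternative, and all 7 genes were found in their summed counts above the level that 3 counts would give (0.145 CPM). Neto2 stood at 106 CPM, Grik1 at 96.2, Grik3 at 63.2 and Neto1 at 46.3 CPM. Grik4 stood at 10.5 CPM, Grik5 at 6.89 and Grik2 at 3.18 CPM. Grik5 and Grik2 were carried by 1 and 2 of the 9 cells. The failed cells had 899625 to 6253603 counts and 1427 to 4154 genes at 10 CPM.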

How the results depend on the processing

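The count of genes called between genotypes was 0 in edgeR's test under every alternative, with 505 to 791 genes at an unadjusted p under 0.05, and 666 (367 higher, 299 lower, 2080 unadjusted) in DESeq2, which called none of the 7 members. No member was called in any alternative. The log2 fold change of Grik2, Grik3 and Grik4 stayed above 0 under every alternative run. For Grik2 it was as low as 0.075, with only the 51 cells of 3000 or more genes. It changed sign for Grik1 without the covariate for sex (-0.19), for Grik5 (-0.28) and Neto2 (0.30) with only the 51 cells of 3000 or more genes, for Neto1 (-1.04) without the cells of title numbers above 117, and for Neto2 (0.072) without the 7 cells high in glia or blood markers. The last 3 settings were chosen after seeing the data, and the causes were not tested. Leaving out each cell in turn gave log2 fold changes of -0.53 to 1.68 for Grik1, 0.47 to 0.97 for Grik2, 1.28 to 2.49 for Grik3, 0.74 to 2.14 for Grik4, -0.21 to 0.96 for Grik5, 0.48 to 2.55 for Neto1 and -0.40 to 0.11 for Neto2. With only the 57 cells carrying Lhx6, Neto1 had 2.61. At 1 CPM in place of 10 CPM, cells carrying Grik4 numbered 45 in place of 12, and those carrying Neto2 53 in place of 38; at 100 CPM they numbered 2 and 23. No paired analysis was possible because the labels give the cells no replicate numbers. Each group is 1 sum of 9 to 19 cells from an unstated number of animals.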

Other observations

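Grik5 and Neto1 differed along the numbers in the cells' titles, with 117, the highest number of a WT male cell, taken as a limit after the values were seen. Above it, Grik5 was carried by 3 of 13 unmarked cells, with a median of 0.98 CPM, and up to it by 33 of 49, with a median of 44.6 CPM. Neto1 was carried by 8 of 13 cells above it (median 95.1 CPM) and by 12 of 49 up to it (median 1.14 CPM).

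Within groups, Grik5 was carried by 2 of 6 Mut female cells above the limit and 10 of 13 up to it, by 1 of 4 and 7 of 11 Mut male cells, and by 0 of 3 and 3 of 6 WT female cells. Neto1 was carried by 5 of 6 Mut female cells above it and 0 of 13 up to it, and by 2 of 4 and 6 of 11 Mut male cells. The median number of genes at 10 CPM was 3068 above the limit and 4117 up to it. No WT male cell lies above the limit, and these counts were not tested.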
